A study of Mus musculus with 10 samples.

Results

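The MHC class II presentation genes comprised 10 gene symbols, chosen by name and not by their values, out of 55453 symbols in the count table of mouse aortae. They are the genes of the classical chains (H2-Aa, H2-Ab1 and H2-Eb1), the invariant chain (Cd74), the peptide-loading chaperone H2-DM (H2-DMa, H2-DMb1 and H2-DMb2), its inhibitor H2-DO (H2-Oa and H2-Ob) and the class II transactivator (Ciita). All 10 had counts, and 9 of them passed the filter on low counts, which H2-Oa did not.

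RNA was sequenced from whole aortae of 10 male C57BL/6 mice, and each mouse gave 1 library. The young group held 5 mice of 14.5 weeks and the old group 5 mice whose age the labels give as 92.5 weeks. The labels give no transgene and no treatment for either group. Both groups were killed together, and the fat around the vessel was removed after perfusion with saline. The comparison asked which transcripts differ between young and old arteries.

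MHC class II molecules are pairs of an α and a β chain that present peptides from the endosomes to CD4+ T cells. The chains are assembled in the endoplasmic reticulum with the invariant chain, which blocks the groove and directs the complex to the endosome. There the invariant chain is trimmed by proteases, H2-DM exchanges its last fragment (CLIP) for a peptide, and H2-DO, found mainly in B cells, restrains H2-DM. B cells, dendritic cells and many macrophages transcribe these genes together under CIITA, which is recruited to promoters by factors bound at the X and Y boxes, and interferon γ can induce CIITA in other cells, endothelium included.

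Of the members, 8 lie in 1 stretch of chromosome 17 (GRCm38, GENCODE), from H2-Oa at chr17:34092340-34095234 through H2-DMa at 34119541-34139101, H2-DMb2 at 34143307-34151555, H2-DMb1 at 34153072-34160230, H2-Ob at 34238903-34254414, H2-Ab1 at 34257689-34269419 and H2-Aa at 34282744-34287823 to H2-Eb1 at 34305867-34316674. H2-Aa is on the minus strand and the other 7 are on the plus strand. Ciita lies at chr16:10480059-10528418 on the plus strand, and Cd74 is on neither of these chromosomes. H2-DMb1 and H2-DMb2 are near copies. Of the 50-base windows of the H2-DMb1 transcripts, 22.7% also occurred in H2-DMb2, and 21.2% of those of H2-DMb2 occurred in H2-DMb1, so that reads could be assigned to either. Of the windows of H2-Oa, 15.5% lay in an overlapping gene on the opposite strand (BC051537), and of those of H2-DMa 8.43% lay in Brd2, also on the opposite strand. The strand setting of the counting is not given in the sources used here.

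The promoter stretches of 5 class II genes are shown, since class II promoters recruit CIITA through the X and Y boxes. Of these, 4 were chosen because both searched cores were found, so that this number is no result. H2-Aa was added with its Y core alone, and H2-Eb2 is not a member. Capitals mark the core of the X box and that of the Y box. The X box was searched by the letters CNGATG and the Y box, at which NF-Y binds, by the letters ATTGG. Each stretch is 95 bases of the RefSeq sequence of GRCm38.p6, given 5′ to 3′ on the strand of the gene.
H2-Eb1 (chr17:34305738-34305832, plus strand): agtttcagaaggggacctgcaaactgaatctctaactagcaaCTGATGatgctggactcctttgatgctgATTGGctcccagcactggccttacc
H2-Eb2 (chr17:34325505-34325599, plus strand): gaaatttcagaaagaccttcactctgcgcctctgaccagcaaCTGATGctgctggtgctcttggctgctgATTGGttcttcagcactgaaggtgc
H2-DMb1 (chr17:34153060-34153154, plus strand): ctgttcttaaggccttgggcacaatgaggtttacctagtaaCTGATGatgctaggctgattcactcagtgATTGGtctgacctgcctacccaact
H2-DMb2 (chr17:34145089-34145183, plus strand): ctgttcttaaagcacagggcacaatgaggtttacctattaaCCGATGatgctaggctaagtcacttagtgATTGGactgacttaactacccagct
H2-Aa (chr17:34287847-34287941, minus strand): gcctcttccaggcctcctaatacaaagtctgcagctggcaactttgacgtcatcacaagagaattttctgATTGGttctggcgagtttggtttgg

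In H2-Eb1 and its relative H2-Eb2, the X core was followed by the Y core after 22 bases. The spacing was 23 bases in both DMb genes. In H2-Aa the Y core stood 48 bases before the start site, and the searched X letters were not in the window. A search by fixed letters can miss X boxes of other letters. The absence of the letters therefore does not show that a promoter lacks an X box. A Y core also stood 43 bases before the start of H2-Oa and 57 bases before that of H2-Ob, and the X letters lay farther upstream in both windows, outside the spacing searched. Of the windows of H2-DMa, which has more than 1 annotated start, 1 held a Y core 198 bases before the start, and none held the X letters. These class II windows were searched on the strand of the gene only. Over 32851 promoter windows of the same 300 bases, 0.469% held, on that strand, an X core followed by a Y core after 10 to 35 bases. Searched on both strands, 37.4% held the Y core, 36.1% the X core, and 0.959% the X core followed by the Y core at that spacing. A match of letters is no evidence of binding in these aortae.

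Cd74 was the most abundant member per length, and the classical chains followed. Expressed as normalized counts (each count over its library's DESeq2 size factor) per kilobase of annotated exon, Cd74 stood at 986 ± 469 in young and 1902 ± 766 in old aortae (mean ± SD, n = 5 each, as throughout). H2-Eb1 stood at 320 ± 168 and 624 ± 214, H2-Ab1 at 244 ± 117 and 469 ± 196, and H2-Aa at 233 ± 126 and 443 ± 168. The means ± SD of these 3 genes overlapped. They were measured in the same libraries, however, and their order per length within each mouse was not tested. H2-DMb1 came next at 108 ± 27.1 in young and 142 ± 37.3 in old aortae per kilobase, followed by H2-DMa at 29.4 ± 8.95 and 46.1 ± 14.9. The remaining genes were low, with means per kilobase between 2.36 and 5.56 in young and between 4.41 and 14.3 in old aortae. The means ± SD of H2-DMb2, Ciita, H2-Oa and H2-Ob overlapped, and their order was not tested. The sum over the members was 3001 to 7679 normalized counts in young and 5444 to 13015 in old mice.

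The classical chains and Cd74 were about 1.9-fold higher in old aortae by the fitted means, but no member passed the test, and young mouse 3 had levels of these genes within the range of the old mice. H2-Aa, the α chain of I-A, had normalized counts of 733, 647, 1738, 627 and 689 in young mice 1 to 5 and of 1509, 1638, 2782, 1264 and 1214 in old mice 1 to 5. H2-Ab1, the β chain of I-A, had 579, 453, 1157, 445 and 499 in young and 1006, 1196, 2067, 968 and 785 in old mice. In both genes, young 3 stood above 3 or more old mice, the other 4 young mice lay below every old mouse, and old 3 was the highest of all. The fold changes on the log2 scale were 0.93 ± 0.35 (SE) for H2-Aa and 0.95 ± 0.35 for H2-Ab1 (edgeR quasi-likelihood test, Benjamini-Hochberg adjusted p = 0.127 and 0.115).

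H2-Eb1, the β chain of I-E, had normalized counts of 540, 417, 1202, 462 and 492 in the young mice and of 1059, 1159, 1940, 963 and 939 in the old mice (log2 fold change 0.97 ± 0.34 SE, edgeR adjusted p = 0.0984). Young 3 stood above 4 of the 5 old mice, and the other 4 young mice lay below every old mouse. Its α chain partner, annotated in this strain as the pseudogene H2-Ea-ps, had 1 count in 10 libraries, in old 3. H2-Eb2, a further β chain gene, had 8 counts in young and 20 in old libraries, of which young 1 and old 3 held the most (6.13 and 13.0 normalized counts), and neither gene was tested.

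Cd74, the invariant chain, had normalized counts of 1525, 1268, 3045, 1198 and 1243 in the young mice and of 2639, 3304, 5366, 2518 and 2135 in the old mice. Here, too, young 3 lay among the old mice, and the remaining young mice lay below all of them. The log2 fold change was 0.95 ± 0.34 (SE, edgeR adjusted p = 0.108). Ciita, which controls the transcription of the other members, had 42.9, 37.2, 94.7, 24.1 and 19.5 normalized counts in the young mice and 61.0, 80.6, 130, 69.4 and 35 in old mice. Its groups overlapped more widely, as old 5 was below young 1 and young 2 and young 3 was above every old mouse but old 3 (log2 fold change 0.79 ± 0.44 SE, edgeR adjusted p = 0.28).

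**Figure D1:**
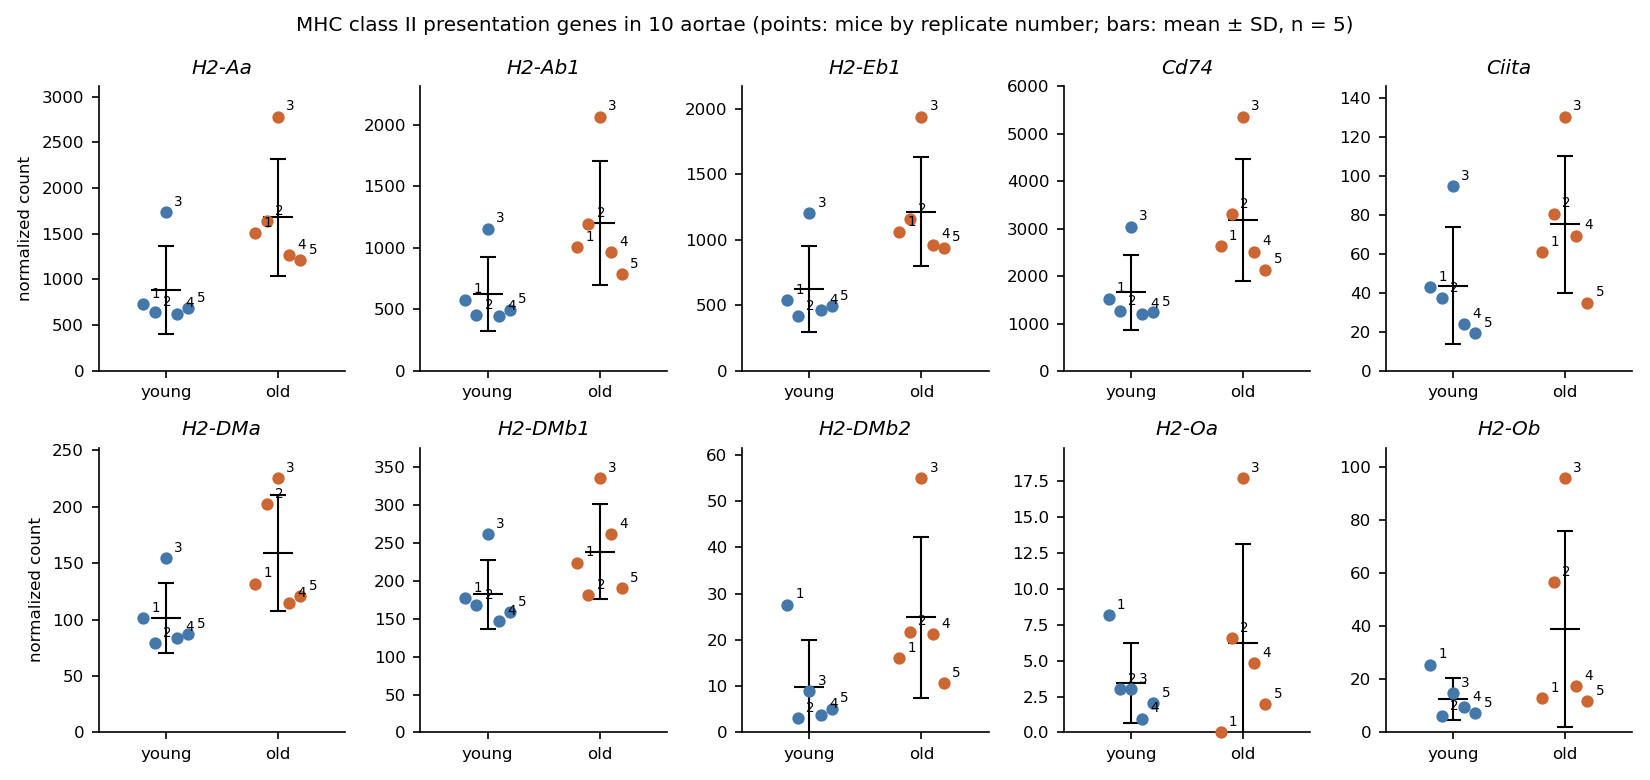
Normalized counts (y axis, linear from 0) of the 10 class II presentation genes in young and old aortae, with a point for each mouse marked by its replicate number and bars for mean ± SD, n = 5 each, cut off at 0. Young 3 is among the old mice for H2-Aa, H2-Ab1, H2-Eb1, Cd74, Ciita, H2-DMa and H2-DMb1, whereas young 1 is the highest young mouse for H2-DMb2, H2-Oa and H2-Ob.

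H2-DMa and H2-DMb1 had smaller fold changes than the classical chains. H2-DMa, the α chain of H2-DM, had normalized counts of 101, 79.5, 155, 84.0 and 87.1 in the young mice and of 132, 203, 226, 115 and 121 in the old mice (log2 fold change 0.66 ± 0.24 SE, edgeR adjusted p = 0.0976). H2-DMb1, the more abundant β chain gene, ranged from 147 to 261 in young and from 181 to 336 in old mice, with young 3 at the top of the young range and level with old 4 (0.40 ± 0.19 SE, edgeR adjusted p = 0.215). Both genes varied over a smaller range than the classical chains. In H2-DMb1, old 2 was the lowest and old 4 the second highest of the old mice, unlike in the classical chains. The highest library exceeded the lowest by 2.29-fold for H2-DMb1 and 2.84-fold for H2-DMa, against 4.44-fold for H2-Aa and 4.48-fold for Cd74.

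H2-DMb2 and the H2-DO genes had another order of mice. H2-DMb2 had 27.6, 3.02, 8.97, 3.86 and 5.12 normalized counts in the young mice and 16.0, 21.8, 55.0, 21.2 and 10.7 in old mice (log2 fold change 1.37 ± 0.60 SE, edgeR adjusted p = 0.168). H2-Ob, the β chain of H2-DO, had 25.6, 6.04, 15.0, 9.66 and 7.17 in young and 13.0, 56.7, 96.0, 17.4 and 11.7 in old mice (1.62 ± 0.66 SE, edgeR adjusted p = 0.142). Without old 3 the log2 fold change of H2-Ob was 0.95 (edgeR adjusted p = 0.331). H2-Oa, the α chain of H2-DO, had 8.18, 3.02, 2.99, 0.966 and 2.05 in young and 0, 6.54, 17.7, 4.82 and 1.94 in old mice. Old 3, old 2 and young 1 were the 3 highest libraries for each of these 3 genes, and young 3 was not among them. For H2-Oa, with 17 counts over the young mice and 32 over the old mice, the means differed by 1.80-fold, which was less than the spread between mice (exact two-sided permutation test, p = 0.516, smallest possible 0.00794), and without old 3 its log2 difference was -0.05. Without young 1, H2-DMb2 was called with a log2 fold change of 2.24 (edgeR adjusted p = 0.0148).

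All 9 tested members had a positive fold change, with a median of 0.95 on the log2 scale against 0.0034 over the 14614 tested genes, and edgeR called 0 of them at an adjusted p below 0.05, where 6.48% of all tested genes were called as higher in old aortae. At an unadjusted p below 0.05, 7 of the 9 members passed, beside 14.1% of all genes. With 10 members and 5 mice in each group, 0 members had every old mouse above every young mouse, against 5.37% of the tested genes. DESeq2, which also tested H2-Oa, called 3 members, H2-Eb1, H2-DMa and H2-Ob, with adjusted p-values between 0.0476 and 0.049, and 7.24% of the genes it tested as higher in old aortae. Limma-voom called 4, namely H2-Aa, H2-Ab1, H2-Eb1 and Cd74 (adjusted p between 0.0253 and 0.043), and 6.53% of all genes as higher in old aortae. Thus the members lay on either side of the threshold, depending on the test. In whole tissue, a higher transcript level can come from more cells of a type or from more RNA per cell, and these cannot be told apart.

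The calls turned on young 3. Its level was 2.58 times the mean of the other 4 young mice for H2-Aa, 2.34 times for H2-Ab1, 2.52 times for H2-Eb1, 2.33 times for Cd74 and 3.06 times for Ciita, but 0.906 times for H2-DMb2. Without young 3, edgeR called 6 of the 9 members, beside 6.05% of all genes called as higher in old aortae, and the median log2 fold change was 1.30. H2-Eb1 then rose by 1.35 ± 0.22 (SE) on the log2 scale (adjusted p = 0.00504), H2-Aa by 1.33 ± 0.24 (0.00839), Cd74 by 1.30 ± 0.26 (0.0146), H2-Ab1 by 1.30 ± 0.27 (0.0174), H2-DMa by 0.86 ± 0.22 (0.0265) and Ciita by 1.29 ± 0.36 (0.0448). In 6 members, H2-Aa, H2-Ab1, H2-Eb1, H2-DMa, H2-DMb1 and Cd74, all 5 old mice then lay above the 4 young mice, against 6.86% of all genes. Young 3 was singled out by its values for these same members, and not for the other genes. The adjusted p-values of the members in this fit are therefore no independent test, and the shares over all genes are no like comparison. The omission of old 3, the library with the highest level of every member, moved the values the other way. The median log2 fold change fell to 0.67, 1 member passed at an unadjusted p below 0.05, and 0 of 9 were called by edgeR, beside 5.02% of all genes called as higher in old aortae. No label sets either mouse apart from its group, and both were kept.

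**Figure D2:**
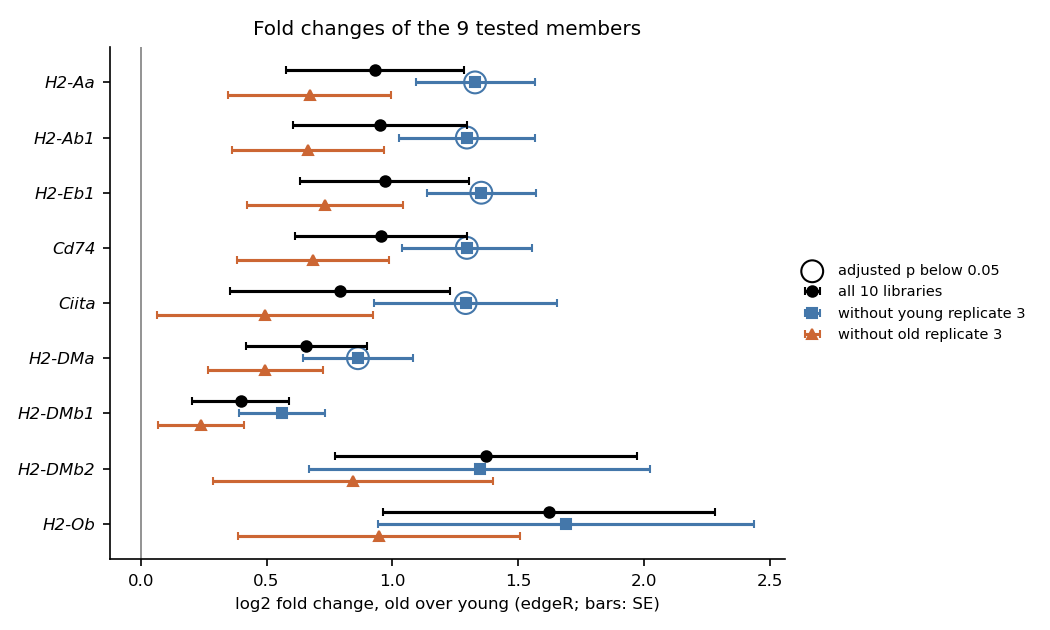
The log2 fold change of old over young aortae (x axis) from edgeR for the 9 tested members, with bars for the standard error, in all 10 libraries (black), without young 3 (blue) and without old 3 (orange). Open circles mark an adjusted p below 0.05, and the 6 circled values are all from the fit without young 3.

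The classical chains and Cd74 kept nearly the same proportions in all mice. The ratio of H2-Ab1 to H2-Aa was 0.790, 0.700, 0.666, 0.711 and 0.725 in young and 0.667, 0.731, 0.743, 0.766 and 0.646 in old mice, so that the highest ratio was 1.22 times the lowest while either gene varied more than 4-fold. The ratio of Cd74 to H2-Aa was between 1.75 and 2.08 in young and between 1.75 and 2.02 in old mice, and that of H2-Eb1 to H2-Ab1 was between 0.920 and 1.04 and between 0.938 and 1.20. Young 3 was at the end of the young range in each of these ratios and within the range of the old mice. On the log2 scale the ratios differed between old and young by -0.02 for H2-Ab1 to H2-Aa, by 0.06 for H2-Eb1 to H2-Ab1 and by -0.01 for Cd74 to H2-Aa (exact two-sided permutation tests, adjusted over 6 ratios, p = 0.865, 0.619 and 0.865). The ratio of H2-DMa to H2-Aa was 0.139, 0.124, 0.0892, 0.135 and 0.127 in young and 0.0877, 0.124, 0.0812, 0.0911 and 0.0996 in old mice. It was 0.34 lower in old aortae on the log2 scale, with p = 0.0714 by the exact permutation test and 0.429 after adjustment, and young 3 had the lowest of the young ratios. Without young 3 the difference was -0.45, with an adjusted exact p of 0.0476.

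Relative to Ptprc (CD45), which nearly all leukocytes express, H2-Aa and Cd74 were 1.17- and 1.16-fold higher in old aortae, which was less than the spread between mice. Ptprc had normalized counts of 191, 114, 192, 109 and 113 in the young mice and of 201, 276, 395, 185 and 174 in the old mice (log2 fold change 0.78 ± 0.26 SE, edgeR adjusted p = 0.0802). Cd74 per Ptprc was 7.96, 11.1, 15.8, 10.9 and 11 in young and 13.1, 12.0, 13.6, 13.6 and 12.2 in old mice, and H2-Aa per Ptprc was 3.83, 5.67, 9.01, 5.72 and 6.09 and 7.50, 5.93, 7.03, 6.81 and 6.96. Young 3 had the highest of the 10 ratios and young 1 the lowest in both cases, and the old mice spanned a narrow range between them. The log2 difference was 0.22 for each ratio (exact two-sided permutation tests, adjusted over 6 ratios, p = 0.619 for both). Without young 3 it was 0.34 for Cd74 and 0.38 for H2-Aa, each with an adjusted exact p of 0.0476, so that this call also depends on that mouse.

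**Figure D3:**
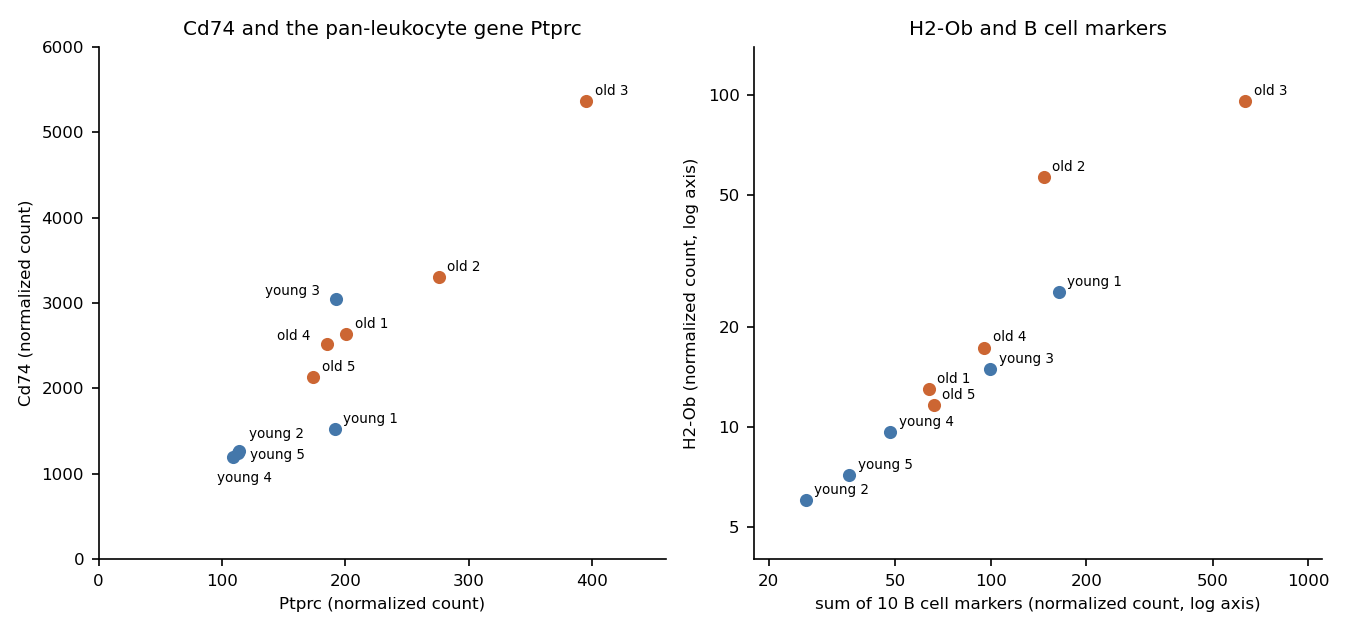
Left, Cd74 against Ptprc (normalized counts, linear axes from 0), and right, H2-Ob against the summed normalized counts of 10 B cell markers (log axes), with a point for each mouse, young in blue and old in orange. Young 3 has 15.8 counts of Cd74 per count of Ptprc, the highest of the 10 libraries, and old 3 is the highest on all 4 axes.

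Markers of leukocytes moved with several members across mice, and their part in the differences was not tested. The sum of 8 pan-leukocyte markers, Ptprc among them, was 1253 to 1869 normalized counts in young and 1886 to 4467 in old mice, with the highest values of each group in young 3 and old 3. Of these 8 genes 2 rose, the actin regulator Coro1a by 0.94 and the lysosomal gene Laptm5 by 0.75 on the log2 scale (edgeR adjusted p = 0.0266 and 0.0441). DESeq2 called 5 and limma-voom 4 of them as higher. The summed normalized counts of 10 B cell markers, all with counts, were 164, 26.2, 99.7, 48.3 and 35.9 in young and 64.0, 147, 633, 95.4 and 66.1 in old mice. Old 3, young 1 and old 2 were the highest, and these 3 libraries were also the highest for H2-DMb2, H2-Oa and H2-Ob. Of the 10 markers, 4 were tested by edgeR and 0 were called, with 1 passing at an unadjusted p below 0.05, whereas DESeq2 called 1 and limma-voom 0.

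The sum of 10 macrophage markers ranged from 8747 to 11169 in young and from 11396 to 17456 in old mice. In edgeR 5 of the 10 rose, among them the Fc receptor Fcgr1 by 0.98, the endosomal glycoprotein Cd68 by 0.83 and Adgre1 (F4/80) by 0.80 on the log2 scale (adjusted p = 0.0142, 0.0155 and 0.0235). DESeq2 called 8 and limma-voom 7 as higher, and edgeR without young 3 called 3. Young 3 had the lowest macrophage sum of all libraries, and the sum is carried by abundant genes such as Mertk and Csf1r. In young 3, Adgre1 (410) was the highest and Cd68 (186) the second highest of the young mice. Csf1r (1255), Lyve1 (584), Cd163 (440) and C1qb (860) were the lowest of the young mice in young 3. There, C1qa and Mertk were the second lowest, and Mrc1 and Fcgr1 stood at the median of the young mice. The sum of 10 dendritic cell markers was 447 to 726 in young and 728 to 785 in old mice, without overlap, and of the 5 tested markers 1 was called, the lectin gene Cd209a (1.76 on the log2 scale, edgeR adjusted p = 0.000756). Most of this sum came from 1 gene of the list, Zbtb46, which overlapped between the groups (388 to 603 normalized counts in young and 467 to 596 in old mice, edgeR adjusted p = 0.149). Which cells of the aorta expressed Zbtb46 was not tested, so that the sum is no measure of dendritic cells. The sum in young 3 (592) was below that in young 1 (726). Among the markers of the list, Itgax (CD11c) and Flt3 were highest of the young mice in young 3, at 32.9 and 6.98 normalized counts, as was Cd209a at 35.9, whereas Zbtb46, Siglech, Xcr1, Clec9a, Ccr7 and Batf3 were not.

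The sum of 8 endothelial markers was highest in young 3 (35347) and lowest in old 3 (10535), and edgeR called 1 of the 8 (5 with DESeq2 and with limma-voom), the angiopoietin receptor Tek, which fell by 0.87 on the log2 scale (edgeR adjusted p = 0.0381). Thus the mice with the most class II transcripts in each group were at opposite ends for endothelial markers. The smooth muscle markers, 8 genes with a sum of 777410 to 984490 in every library, marked the tissue as arterial wall, and 1 of them, Smtn, rose. The sum of 6 adipocyte markers was 10124 to 35107 in young and 5944 to 14552 in old mice, with the highest value in young 1, and edgeR called 0 of the 6, with 4 passing at an unadjusted p below 0.05, while DESeq2 called 2 and limma-voom 1 as lower in old aortae.

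**Figure D4:**
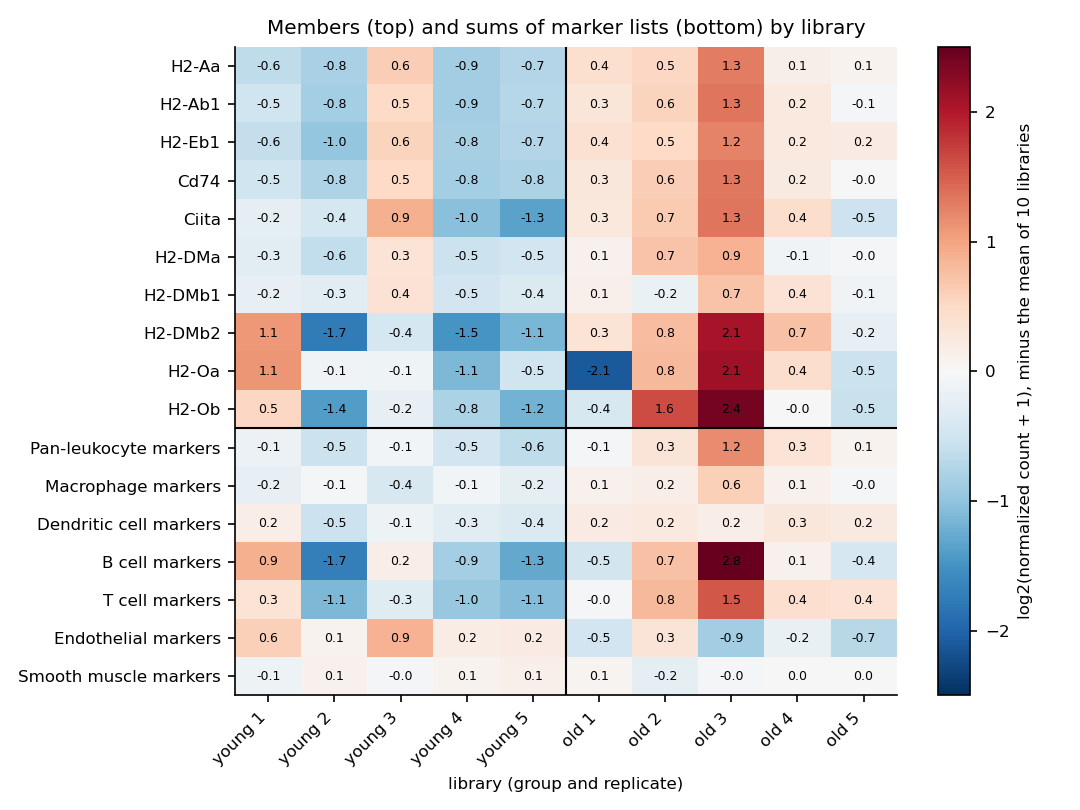
Each cell gives log2 (normalized count + 1) of a member (above the line) or of a sum of markers (below the line) in 1 library, minus the mean over the 10 libraries, with red above and blue below that mean. Old 3 has the highest value of every member and of the pan-leukocyte, macrophage, B cell and T cell sums, while young 3 is high for the classical chains, Cd74 and Ciita and has the lowest macrophage sum.

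The relation of Cd74 to the markers within the groups was computed for 6 lists, from log2 CPM (counts scaled to library size) of the tested markers after the group means were removed. With the dendritic cell markers Pearson's r was 0.78 over 10 mice (permutation p = 0.00612, adjusted over 6 lists 0.0367) and Spearman's rho was 0.73 (permutation p = 0.0204, adjusted 0.0906). Without young 2 and young 3, the mice farthest from the median, r was 0.72 (adjusted permutation p = 0.072), and without young 3 alone it was 0.62 (adjusted permutation p = 0.134). The call was also lost without young 5, old 1 or old 5, although r was 0.77, 0.78 and 0.77 (adjusted permutation p = 0.0804, 0.0832 and 0.0751), so that it depends on single mice. With the B cell markers r was 0.71 and rho 0.64 (permutation p = 0.0244 and 0.0544, adjusted 0.0731 and 0.0906), and r was 0.72 without the farthest pair. It reached 0.82 without young 1 and 0.83 without young 3, where it passed (adjusted permutation p = 0.0261 and 0.0158). With the T cell markers r was 0.59 and rho 0.65 (permutation p = 0.0772 and 0.0487, adjusted 0.154 and 0.0906), and r was 0.80 without the farthest pair and 0.79 without young 1, where it passed (adjusted permutation p = 0.0261). With the macrophage markers r was 0.48 and rho 0.38 (permutation p = 0.156 and 0.279, adjusted 0.196 and 0.279), but r was -0.17 without the farthest pair, -0.14 without old 3 and 0.93 without young 3 (adjusted permutation p = 0.00924 for the last). With the endothelial markers r was 0.35 and rho 0.43 (permutation p = 0.324 and 0.216, adjusted 0.324 and 0.259) and r was -0.07 without the farthest pair, but 0.76 without old 3 (adjusted permutation p = 0.0468). With the smooth muscle markers r was -0.47 and rho -0.62 (permutation p = 0.164 and 0.0604, adjusted 0.196 and 0.0906), and r was -0.80 without the farthest pair (adjusted permutation p = 0.0472).

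The genes that followed the classical chains and Cd74 most closely over the 10 mice, by the correlation with their mean group-centred log2 CPM, are given as a description. Mpeg1, which encodes the macrophage perforin, had r = 0.97, and the leukocyte surface gene Cd52 also had r = 0.97. Galk2 and Chaf1b came next with 0.96 and 0.95, followed by Ptk2b, Riox2, Stap1 and Ttc9 with 0.94 to 0.92. Between the ages, Galk2, Chaf1b, Ptk2b and Riox2 differed by only 0.15, 0.24, 0.42 and 0.10 on the log2 scale. None of them was called (edgeR adjusted p = 0.284, 0.696, 0.327 and 0.446). Cd52 and Stap1 differed by 1.56 and 1.47 (edgeR adjusted p = 0.0566 and 0.0213). Among the members, H2-DMa had 0.92, Ciita 0.89, H2-DMb1 0.84, H2-Ob 0.67 and H2-DMb2 0.57. Mpeg1 had 380 normalized counts in young 3 against 125 to 150 in the other young mice, and 317 to 923 in old mice. Its fold change was 1.39 ± 0.41 (SE) on the log2 scale (edgeR adjusted p = 0.0604). Ttc9 had 187 in young 3 against 50.2 to 64.6 in the other young mice, and rose by 2.08 (edgeR adjusted p = 0.0172), with 230 to 720 in old mice.

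Of the 7 genes of the complex at the X and Y boxes (the RFX, NF-Y and CREB subunits), 1 was called. Rfx5, the DNA-binding subunit of RFX, had 416 to 510 normalized counts in the young mice and 524 to 599 in old mice and rose by 0.31 ± 0.08 (SE) on the log2 scale (edgeR adjusted p = 0.0206). The median over the 7 genes was -0.03. Rfx5 thus separated the ages without overlap, and young 3 (508) was within its group.

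Interferon γ is the main inducer of Ciita outside the professional antigen-presenting cells. Ifng itself had 1 count, in old 3, and 0 counts in the other 9 libraries. Of the 11 tested genes of the pathway list 1 was called, Spi1, a transcription factor of myeloid and B cells, which rose by 0.83 on the log2 scale (edgeR adjusted p = 0.0244). The median over the 11 genes was 0.10. DESeq2 called 3 and limma-voom 2 genes of this list as higher in old aortae. Of all genes tested by edgeR, 6.48% were called as higher.

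Of the 11 genes that process antigen in the endosome, 1 rose. Ctss, the cathepsin that trims the invariant chain, had 334, 287, 352, 264 and 281 normalized counts in the young mice and 454, 612, 903, 541 and 463 in old mice. All old mice lay above all young mice, and the log2 fold change was 0.98 ± 0.18 (SE, edgeR adjusted p = 0.00583). Its size was thus close to that of Cd74, but young 3 stood near the other young mice. Ifi30, the lysosomal thiol reductase, had 508 to 615 in young and 568 to 789 in old mice (log2 fold change 0.28 ± 0.09 SE, edgeR adjusted p = 0.0623). Lgmn, an endosomal protease, had 2289 ± 87.0 and 2358 ± 379 (0.05, edgeR adjusted p = 0.771).

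Of 9 tested genes of class II turnover at the surface and of Cd74 partners, 2 rose. Mif, a ligand of CD74, had 443 to 542 normalized counts in the young mice and 603 to 689 in old mice, without overlap (log2 fold change 0.36 ± 0.07 SE, edgeR adjusted p = 0.00553). Cd82, a tetraspanin that associates with class II and DM molecules, rose by 0.32 (edgeR adjusted p = 0.0335). The median over the 9 genes was 0.04. DESeq2 called 3 genes of this list as higher and 2 as lower in old aortae, and limma-voom called 2 as higher.

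On the side of co-stimulation, 2 of 5 tested genes rose. Cd86 rose by 0.76 and Cd80 by 1.06 on the log2 scale (edgeR adjusted p = 0.0188 and 0.024), both ligands of CD28 on antigen-presenting cells. Cd4, the T cell co-receptor that binds class II molecules, had 5.98 to 13.3 normalized counts in the young mice and 15.0 to 44.7 in old mice and rose by 1.95 ± 0.34 (SE, edgeR adjusted p = 0.00269). Cd4 was the 1 gene called among 2 tested of the T cell receptors of class II molecules. Of the 5 tested T cell markers, 2 rose, Cd4 and the T cell receptor subunit Cd3g (2.78, edgeR adjusted p = 0.0121). DESeq2 called 3 and limma-voom 2 of the T cell markers as higher. Cd3e, a further subunit, had 6 counts in young and 69 in old libraries, without overlap, and was not tested.

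Class I molecules, which present peptides from the cytosol to CD8+ T cells, are made by nearly all cells. Of 9 tested class I presentation genes 0 were called by edgeR, 1 was called in each direction by DESeq2 and 0 by limma-voom, 2 passed at an unadjusted p below 0.05, and the median log2 fold change in edgeR was 0.06. Their sum ranged from 53883 to 57969 normalized counts in young and from 52686 to 61193 in old mice, with the highest values of each group in young 3 and old 3.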

How the data were processed

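The authors trimmed the reads with fastp 0.20.0, aligned them with STAR 2.7.0f to GRCm38 and counted them per gene with featureCounts of Subread 1.6.4 (submitters' processing notes). The deposited table holds these raw counts, as whole numbers without normalization, for libraries made with a stranded mRNA kit. Totals ranged from 19640401 to 22886153 per library. The 10 genes, the lists and the tests were chosen with earlier results of these data known. The 5 old aortae were set against the 5 young ones in edgeR 4.0.16 (quasi-likelihood test, robust fit, TMM scaling, filterByExpr, no covariates, R 4.3.3) over 14614 genes, with Benjamini-Hochberg adjustment and a threshold of 0.05. The count tests were tested on simulated data. Levels are counts divided by DESeq2 1.42.0 size factors. Log2 ratios (pseudocount 0.5 on the counts) and the normalized counts of H2-Oa were compared by exact two-sided permutation tests, and correlations by 100000 resamples across both groups. Labels number the mice but do not describe them further, so that p-values measure the spread between these 10 mice.

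Named genes were the 10 members, fixed role genes such as Ptprc and Ifng, up to 3 called genes of each list by the smallest p, and the 8 genes most like the classical chains and Cd74. A few further markers were named after their values were seen. Other members of the lists are given by sums and counts, and 2 of the role genes are not reported here. Promoters came from RefSeq (GRCm38.p6), with 7 members matched by symbol. Exonic lengths came from GENCODE M21, whereas the authors used M22. Alternatives were DESeq2, limma-voom (limma 3.58.1), other scalings, no filter, the replicate number as a block, leaving out each mouse, and a threshold of 0.01. The omission of young 3 and old 3 together was added after the data were seen.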

Additional observations from a re-analysis of the deposited data

Results flagged for a closer look

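In 32 groups of 5 mice, each for 1 gene or list, a mouse was set apart when its gap to the nearest other mouse exceeded 0.71 of the range of the group. Chance alone gives about 1 in 20 such groups, and 11 were found. The groups are not independent, since the genes move together. Of these, 6 were values of young 3, namely H2-Aa at 1738 normalized counts (nearest other young mouse 733), H2-Ab1 at 1157, H2-Eb1 at 1202, H2-DMa at 155, H2-DMb1 at 261 and Cd74 at 3045. Old 3 was set apart for H2-Aa at 2782, for H2-Eb1 at 1940 (nearest other old mouse 1159) and for H2-DMb2 at 55.0. Young 1 was set apart for H2-DMb2 at 27.6 and for H2-Oa at 8.18 normalized counts, the latter a small number of reads. Ciita, for which young 3 (94.7) and old 3 (130) were also the highest of their groups, did not reach the limit. All 11 were for single genes. No list was flagged, but the lists were not scored on their summed normalized counts, so that genes and lists are not alike here. In these sums the gap of old 3 to the other old mice exceeds the limit for the B cell markers (633 against 64.0 to 147). The same holds for the macrophage markers (17456 against 11396 to 13044).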

How the results depend on the processing

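The number of members called by edgeR, 0 with all libraries, was 3 with DESeq2, 4 with limma-voom, and 0 to 6 when 1 mouse was left out, with 6 without young 3 and 1 without young 1. It was 5 without young 3 and old 3 together, an omission chosen after seeing the data. It was 0 with DESeq2 size factors, library size alone, no filter or a threshold of 0.01. With the replicate number as a block 6 members were called, but no label states that the numbers pair the mice. Same-numbered deviations correlated at -0.29, -0.06, 0.10, -0.04 and 0.13, and a library fitted best with its own number for 2 of 5 numbers. These values cannot decide whether the mice are paired. Over all genes and in either direction, edgeR called 1676 with all libraries and 1261 with the block. It called 2367 without young 1 and 1152 without young 3 and old 3 together. The log2 difference of H2-Oa ranged from -0.049 (without old 3) to 1.46 (without young 1). When 1 mouse was left out, the log2 ratio difference ranged from -0.044 to 0.019 for H2-Ab1 to H2-Aa, from -0.038 to 0.024 for Cd74 to H2-Aa, from 0.0089 to 0.10 for H2-Eb1 to H2-Ab1, from -0.45 to -0.28 for H2-DMa to H2-Aa, from 0.072 to 0.38 for H2-Aa to Ptprc and from 0.10 to 0.34 for Cd74 to Ptprc. The sign of the first was positive without young 1 (0.0187), old 1 (0.0060) or old 5 (0.0174), and that of Cd74 to H2-Aa without young 1 (0.0236), young 2 (0.0019), old 1 (0.0176) or old 5 (0.0157). For H2-DMa to H2-Aa, H2-Aa to Ptprc and Cd74 to Ptprc the call was gained without young 3. The correlation of Cd74 with the lists ranged, on leaving out 1 mouse, from 0.50 to 0.83 for B cell, 0.48 to 0.79 for T cell, 0.62 to 0.85 for dendritic cell, -0.14 (without old 3) to 0.93 for macrophage, 0.065 to 0.76 for endothelial and -0.68 to -0.43 for smooth muscle markers. Without young 3 and old 3 together, r was 0.51 for dendritic cell and 0.91 for endothelial markers. Without the farthest pair it was 0.72 for dendritic cell, -0.17 for macrophage, -0.066 for endothelial and -0.80 for smooth muscle markers. The causes were not tested. Low counts limit H2-Oa, H2-DMb2 and H2-Ob.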
